A study of Drosophila melanogaster with 12 samples.

Results

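The change of gene expression between 24 and 48 h after irradiation was followed in NEG cells, the cells of the Drosophila wing disc that lie outside the 30A-GAL4 domain of the hinge. The comparison sets the 2 NEG IR+48h libraries against the 2 NEG IR+24h libraries, chosen by their column names, and so uses 4 of the 12 libraries of the series. The 2 NEG -IR libraries were added as the starting level, so that a gene could be described as returned, persisting or changed for the first time at IR+48h.

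All larvae came from a cross of w1118 to flies with 30A-GAL4 driving UAS-G-trace, which labels cells that use the driver now with RFP and the descendants of cells that once used it with GFP. -IR larvae were mock irradiated and collected after 24 h, and the IR+24h and IR+48h larvae received 4000 R of X-rays. Discs were dissociated with trypsin, and NEG cells were sorted as negative for both RFP and GFP, while POS cells from the hinge were positive for both. Each library pooled discs from several crosses, dissections and sorts, and the study describes the replicates as independent. There was no -IR group at 48 h, and the IR+48h samples held larvae irradiated at more than 1 age, so time after IR and larval age cannot be told apart. In pools of this kind, a lower share of cells of a type and less RNA per cell cannot be told apart either.

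X-rays break DNA. In Drosophila, p53 then induces the pro-apoptotic genes of the hid and reaper region together with repair genes, and dying cells signal through JNK, the Upd cytokines and the hormone Ilp8 to their neighbours and to the endocrine system. Surviving disc cells compensate by regrowth while the larva delays metamorphosis. The glutathione S-transferases, UDP-glycosyltransferases, aldehyde oxidases and cytochrome P450 enzymes neutralise reactive and foreign compounds.

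Total counts were 18397158 and 14886848 in the NEG IR+48h libraries and 12952142 and 14697067 in the NEG IR+24h libraries. The NEG -IR libraries held 4211088 counts for replicate 1 and 15010788 for replicate 2, so -IR replicate 1 is the shallowest library of the series. Levels are given as CPM, counts scaled to the TMM-adjusted library size. Markers of the pouch and notum were present, as the label of NEG cells implies. The pouch markers vg, nub, rn and dve summed to 778 and 771 CPM at IR+48h, against 759 and 742 CPM at IR+24h, and the notum markers pnr, tup, eyg and ush to 163 and 148 CPM at IR+48h, against 120 and 127 CPM at IR+24h. In -IR the pouch markers summed to 872 and 1007 CPM and the notum markers to 142 and 127 CPM. The hinge markers zfh2, Sox15 and ds were also present, and summed to 1140 and 1109 CPM at IR+48h, against 845 and 886 CPM at IR+24h. Their sum in -IR was 1118 and 920 CPM, so both IR+24h libraries lay below both -IR libraries. In each IR+48h and IR+24h library ds made up most of the sum, and its own values are given below. The study describes ds as active in a wider part of the disc than the driver. The hinge marker sum and its rise from IR+24h to IR+48h are therefore not a measure of hinge cells among NEG cells. Markers of muscle precursors, which underlie the notum, varied between replicates, with 675 and 1248 CPM at IR+48h, against 945 and 635 CPM at IR+24h. The fat body markers lay at 3.99 to 15.5 CPM at IR+48h, against 2.14 to 9.77 CPM at IR+24h and 6.29 to 42.3 CPM in -IR.

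Most genes that IR had raised by 24 h had a fitted level closer to -IR at 48 h, with part of the rise left. At IR+24h over -IR, 201 genes rose and 28 fell by the quasi-likelihood test of edgeR (adjusted p under 0.05), 1.89% and 0.264% of the 10617 genes tested. Of the 201 genes that rose, 199 had a lower level at IR+48h than at IR+24h by the fitted fold change, and in 187 both IR+48h libraries lay below both IR+24h libraries. Among all genes tested, 22.4% had both IR+48h libraries below and 19.3% had both above. The median log2 fold change of the 201 genes was -0.87 for IR+48h over IR+24h, beside -0.01 for all genes tested. Of the 28 genes that fell, 27 were higher at IR+48h, 19 of them without overlap, with a median of +0.54 on the log2 scale. The IR+24h libraries take part both in the choice of these genes and in the change after it, so these shares are a description. Without IR+24h replicate 1 the test at IR+24h called 104 genes higher and 6 lower, without IR+24h replicate 2 it called 60 higher and 0 lower, and without -IR replicate 2 it called 196 higher and 104 lower.

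A further set was chosen by the change in POS cells. NEG libraries entered this choice through the filter and the spread that all 12 libraries shared. In POS cells, 440 genes rose and 126 fell at IR+24h over -IR by the same test, 4.14% and 1.19% of the genes tested. In NEG cells, 365 of the 440 genes had a lower level at IR+48h than at IR+24h, or 83.0% beside 51.3% of all genes tested, with a median of -0.45 on the log2 scale. Of the 270 that did not pass the test at IR+24h in NEG cells, 196 were lower in NEG cells at IR+48h, with a median of -0.19. That is 72.6%, beside 51.3% of all genes tested, and the choice of the 270 used the NEG IR+24h libraries. Of the 126 genes that fell in POS cells, 100 were higher in NEG cells at IR+48h, with a median of +0.26. Their share was 79.4%, beside 48.7% of all genes tested. NEG and POS cells were sorted in the same way from dissociated discs, and the deviations of same-numbered NEG and POS libraries from their group means correlated at 0.162 (IR+48h) and 0.11 (IR+24h), so the 2 kinds of library are not shown to be independent.

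No single gene passed the edgeR test for NEG IR+48h over NEG IR+24h. It called 0 genes higher and 0 lower, and the lowest adjusted p was 0.0673. At an unadjusted p under 0.05 there were 166 genes higher and 479 lower, 1.56% and 4.51% of those tested. limma voom called 0 genes higher and 9 lower at an adjusted p under 0.05, or 0% and 0.0848%, and DESeq2 called 3 higher and 70 lower, or 0.0378% and 0.882% of the 7941 genes for which it gave an adjusted p. All 9 of the limma voom calls were among the 70 of DESeq2, and in all 73 genes called by DESeq2 the 2 groups did not overlap. By the edgeR calls 0 genes had returned, 12 persisted and 0 first changed at IR+48h, and 217 of the 229 genes called at IR+24h fitted none of these classes. By the DESeq2 calls 65 genes had returned, 83 persisted and 8 first changed, and 18 of the 65 were still called over -IR at IR+48h.

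The size of the return was read as the share of the log2 change at IR+24h that was left at IR+48h, both relative to -IR. The same -IR libraries enter both changes and the choice of the genes, so the share left is a description. By edgeR, 12 of the 201 genes that rose were called higher than -IR at IR+48h. For the others a level above -IR at IR+48h was not shown. For the 201 genes that rose the median was 50.8% left, with quartiles of 36.7% and 62.4%. In 3 genes nothing was left, in 17 up to 25%, in 76 between 25 and 50%, in 78 between 50 and 75%, in 25 between 75 and 100%, and in 2 more than at IR+24h. For the 28 genes that fell the median left was 67.0%. IR+48h replicate 2 lay below replicate 1 in 155 of the 201 genes and in 14 of the 28, beside 5452 of all 10617 genes tested. Without IR+48h replicate 1 the edgeR test called 4 genes lower at IR+48h than at IR+24h, and without IR+48h replicate 2 it called 0, with a lowest adjusted p of 0.866.

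**Figure D1:**
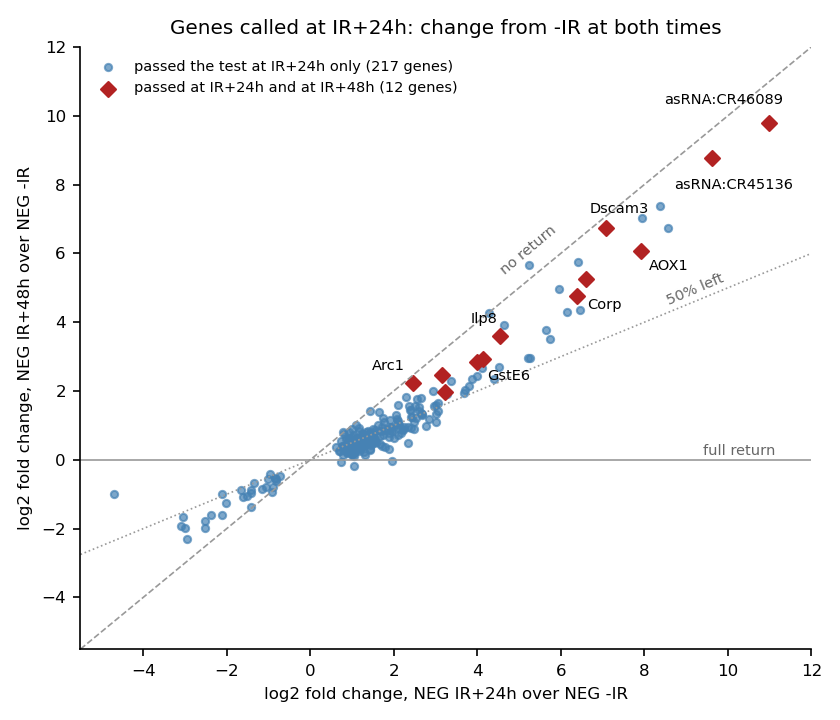
Log2 fold change at IR+48h over -IR (vertical axis) against that at IR+24h over -IR (horizontal axis) in NEG cells for the 229 genes called at IR+24h, with lines for no return, 50% left and full return. Most genes lie between no and full return, with a median of 50.8% left among the 201 that rose. The positions of genes with no count in -IR, such as asRNA:CR46089 and asRNA:CR45136, depend on the small count the fit adds.

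AOX1 and Ugt86Di, enzymes that act on reactive or foreign compounds, had the lowest unadjusted p-values of the comparison by edgeR, 1.26e-05 and 1.45e-05. AOX1, an aldehyde oxidase, had 0.968 and 0.654 CPM in the -IR libraries, 165 and 196 CPM at IR+24h and 62.0 and 38.6 CPM at IR+48h. Its log2 fold change at IR+48h over IR+24h was -1.84 ± 0.26 (SE), with an adjusted p of 0.0673 by edgeR, 0.0228 by limma voom and 1.77e-06 by DESeq2. AOX1 was thus far below its IR+24h level in both libraries and far above its -IR level, where it was one of the persisting genes. Ugt86Di, a UDP-glycosyltransferase, had 18.9 and 24.2 CPM in -IR, 98.3 and 125 CPM at IR+24h and 39.5 and 21.2 CPM at IR+48h, and 20.4% of its log2 rise was left. IR+48h replicate 2 lay within the range of -IR for Ugt86Di, and replicate 1 lay above it (adjusted p = 9.07e-07 by DESeq2 for IR+48h over IR+24h). The cytochrome P450 gene Cyp6d2 had 2.42 and 2.18 CPM in -IR, 73.5 and 94.7 CPM at IR+24h and 27.3 and 7.78 CPM at IR+48h, the widest gap between IR+48h replicates among these genes. Of its exons, 51% overlap nsr on the opposite strand. Ugt86Di and Cyp6d2 were chosen after their values were seen, from the calls of DESeq2.

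Among 37 glutathione genes tested (the glutathione S-transferases and the enzymes that make glutathione), 9 rose at IR+24h by the edgeR test. Among all genes tested, 1.89% rose. At IR+48h over IR+24h none of the 37 passed the edgeR test. At an unadjusted p under 0.05 there were 9 lower and 1 higher, beside 4.51% and 1.56% of all genes. DESeq2 called 5 lower, beside 0.882% of the genes with an adjusted p. In 18 both IR+48h libraries lay below both IR+24h libraries, or 48.6%, beside 22.4% of all genes. In 3 both lay above, or 8.1%, beside 19.3%. The median of the list was -0.35 on the log2 scale, beside -0.01 for all genes, and it lay between -0.54 and -0.14 under every scaling, tool and left-out library tried. GstD1, an abundant transferase, had 1081 and 1119 CPM in -IR, 2170 and 2208 CPM at IR+24h and 1360 and 1042 CPM at IR+48h, with 12.8% of its rise left (log2 fold change at IR+48h over IR+24h -0.87 ± 0.16, SE, with an adjusted p of 0.142 by edgeR and 0.00111 by DESeq2). Gclc, the catalytic subunit of the ligase that starts glutathione synthesis, had 37.0 and 39.2 CPM in -IR, 124 and 102 CPM at IR+24h and 61.3 and 48.9 CPM at IR+48h. More was left for GstE6, which had 2.42 and 3.41 CPM in -IR, 45.8 and 51.3 CPM at IR+24h and 25.8 and 18.6 CPM at IR+48h, so that 71.7% of its log2 rise was left. Both IR+48h libraries of Gclc and GstE6 lay between those of -IR and IR+24h. The Gst genes of a cluster are alike in sequence, and counts may be shared among them.

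Outside the lists, 3 genes that act on iron were among the 70 that DESeq2 called lower, or 0.882% of the genes with an adjusted p. Genes that act on iron were not followed as a list, so the 3 do not describe such genes as a set. Fer2LCH, the ferritin light chain that stores iron, had 229 and 218 CPM in -IR, 397 and 427 CPM at IR+24h and 266 and 247 CPM at IR+48h (adjusted p = 1.54e-04 by DESeq2 for IR+48h over IR+24h). IscU, the scaffold on which iron-sulphur clusters are built, had 40.2 and 41.6 CPM in -IR, 105 and 111 CPM at IR+24h and 61.2 and 53.9 CPM at IR+48h. Tsf3, a transferrin, had 1.94 and 2.54 CPM in -IR, 19.5 and 18.0 CPM at IR+24h and 7.35 and 4.33 CPM at IR+48h. These 3 genes were chosen after their values were seen, all rose at IR+24h by edgeR, and DESeq2 called all of them lower at IR+48h than at IR+24h.

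Among the 13 genes of p53 and cell death tested, 11 had a lower level at IR+48h than at IR+24h, beside 51.3% of all genes. In 10 of them the groups did not overlap, or 76.9% of the list, beside 22.4% of all genes. The list had the most negative median of those described, -0.66 on the log2 scale. At an unadjusted p under 0.05 there were 5 lower and 0 higher, beside 4.51% and 1.56% of all genes. DESeq2 called 2 lower, beside 0.882% of the genes with an adjusted p. The pro-apoptotic gene hid had 116 and 119 CPM in -IR, 253 and 331 CPM at IR+24h and 122 and 136 CPM at IR+48h, so that only 10.2% of its log2 rise was left (log2 fold change at IR+48h over IR+24h -1.18 ± 0.23, SE, with an adjusted p of 0.160 by edgeR and 0.00656 by DESeq2). rpr, its neighbour and partner in blocking the caspase inhibitor Diap1, had 94.1 and 43.9 CPM in -IR, 103 and 140 CPM at IR+24h and 63.3 and 59.0 CPM at IR+48h. The -IR replicates of rpr differ by more than its IR+48h level differs from them. Dronc, the initiator caspase, had 35.1 and 35.4 CPM in -IR, 58.3 and 61.2 CPM at IR+24h and 41.7 and 33.7 CPM at IR+48h.

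Corp, a p53 target that lowers p53 protein, had 0.242 and 0.291 CPM in -IR, from 1 and 4 counts, then 19.3 and 28.4 CPM at IR+24h and 8.60 and 6.76 CPM at IR+48h. Both DESeq2 calls of the list are accounted for by hid and Corp, but Corp was still far above -IR and was one of the persisting genes (adjusted p = 0.0110 by edgeR for IR+48h over -IR). p53 itself had 6.78 and 10.4 CPM in -IR, 23.9 and 26.8 CPM at IR+24h and 14.7 and 12.4 CPM at IR+48h, with 40.7% of its rise left. Of the exons of p53, 38% overlap asRNA:CR46089 on the opposite strand, and the strand of counting is not stated.

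Of 28 DNA repair genes tested, 8 rose at IR+24h by edgeR. At IR+48h over IR+24h, 9 were lower and 0 higher at an unadjusted p under 0.05, and DESeq2 called 3 lower, mus205, Xpc and mre11. mus205, a subunit of the translesion polymerase zeta, had 46.7 and 23.3 CPM in -IR, 103 and 121 CPM at IR+24h and 51.1 and 39.4 CPM at IR+48h (adjusted p = 0.0142 by DESeq2 for IR+48h over IR+24h). Xpc, which recognises damage for nucleotide excision repair, had 227 and 201 CPM in -IR, 399 and 392 CPM at IR+24h and 271 and 232 CPM at IR+48h. Both IR+48h libraries of Xpc stood above both -IR libraries, and 26.4% of its rise was left. The 3 members of the break-sensing complex differed in what was left: 18.1% for mre11, 41.9% for rad50 and 58.0% for nbs. The end-joining pair Ku80 and Irbp had 36.6% and 54.6% left, with Irbp at 11.1 and 6.03 CPM in -IR, 44.8 and 55.1 CPM at IR+24h and 26.1 and 18.0 CPM at IR+48h. Another 12 of the 28 had a fitted level above that at IR+24h, and the median of the list was -0.15, or -0.31 without IR+24h replicate 1.

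RpA-70, which coats single-stranded DNA, and RnrL, the large subunit of ribonucleotide reductase, rose at IR+24h and had 55.2% and 63.6% of the rise left. The DNA replication list as a whole had a median of +0.20 at IR+48h over IR+24h, with 26 of 39 genes above 0, beside 48.7% of all genes. In 19 of them the groups did not overlap, or 48.7% of the list, beside 19.3% of all genes. The median was 0.13 without IR+24h replicate 2. At an unadjusted p under 0.05 there were 5 higher and 2 lower, beside 1.56% and 4.51% of all genes, and neither edgeR nor DESeq2 called any. Caf1-180, a subunit of the factor that deposits histones behind the fork, had 154 and 161 CPM at IR+48h, against 107 and 132 CPM at IR+24h. DNApol-alpha180, the catalytic subunit of the primase polymerase, had 103 and 108 CPM at IR+48h, against 72.5 and 87.2 CPM at IR+24h, with an adjusted p of 0.743 by edgeR. Mcm10, an origin-firing factor chosen after its values were seen, had 52.7 and 53.8 CPM at IR+48h, against 30.5 and 41.3 CPM at IR+24h.

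A scaffold of ubiquitin ligases and regulators of signalling were also among the DESeq2 calls. Cul2, a cullin, had 115 and 99.7 CPM in -IR, 761 and 783 CPM at IR+24h and 314 and 174 CPM at IR+48h, with a log2 fold change at IR+48h over IR+24h of -1.66 ± 0.24 (SE) and an adjusted p of 0.0673 by edgeR and 1.77e-06 by DESeq2. Its IR+48h libraries were apart from both other groups, and 41.8% of the rise was left. kek1, a transmembrane inhibitor of EGFR, had 190 and 185 CPM in -IR, 396 and 377 CPM at IR+24h and 221 and 213 CPM at IR+48h. The replicates of kek1 were close in every group, and it was called lower by limma voom (adjusted p = 0.0452) and by DESeq2 (adjusted p = 7.68e-05). cv-2, a secreted BMP-binding protein, had 93.7 and 87.9 CPM in -IR, 407 and 304 CPM at IR+24h and 191 and 159 CPM at IR+48h. Rchy1, a RING ubiquitin ligase whose mammalian counterpart acts on p53, had 26.4 and 27.5 CPM in -IR, 51.8 and 60.6 CPM at IR+24h and 24.5 and 23.4 CPM at IR+48h. Rchy1 and amd, a decarboxylase relative needed for cuticle, were 2 of the 3 genes of the 201 whose fitted level at IR+48h was below that in -IR. Cul2, Rchy1 and amd were chosen after their values were seen.

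Among 18 regeneration and damage markers tested, 6 rose at IR+24h by edgeR, beside 1.89% of all genes. At IR+48h over IR+24h, 14 had a lower fitted level and 4 a higher one. At an unadjusted p under 0.05, 7 were lower and 0 higher, beside 4.51% and 1.56% of all genes. In 12 both IR+48h libraries lay below both IR+24h libraries, or 66.7%, beside 22.4% of all genes. Neither edgeR nor DESeq2 called any of the 18, and the median was -0.39. Mmp1, the matrix metalloprotease that JNK induces, had 155 and 164 CPM in -IR, 396 and 544 CPM at IR+24h and 305 and 283 CPM at IR+48h. The cytokine upd3 had 1.94 and 2.25 CPM in -IR, 14.6 and 20.9 CPM at IR+24h and 4.43 and 8.995 CPM at IR+48h, and upd2 had 3.15 and 3.78 CPM in -IR, 16.01 and 21.6 CPM at IR+24h and 6.49 and 10.4 CPM at IR+48h. More than 50% of the log2 rise was left for each of Mmp1 (56.6%), upd3 (53.9%) and upd2 (51.7%). Socs36E, the feedback inhibitor of JAK/STAT, had 156 and 203 CPM at IR+48h, against 279 and 275 CPM at IR+24h, and the 18 genes of the JNK list had a median of -0.18.

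**Figure D2:**
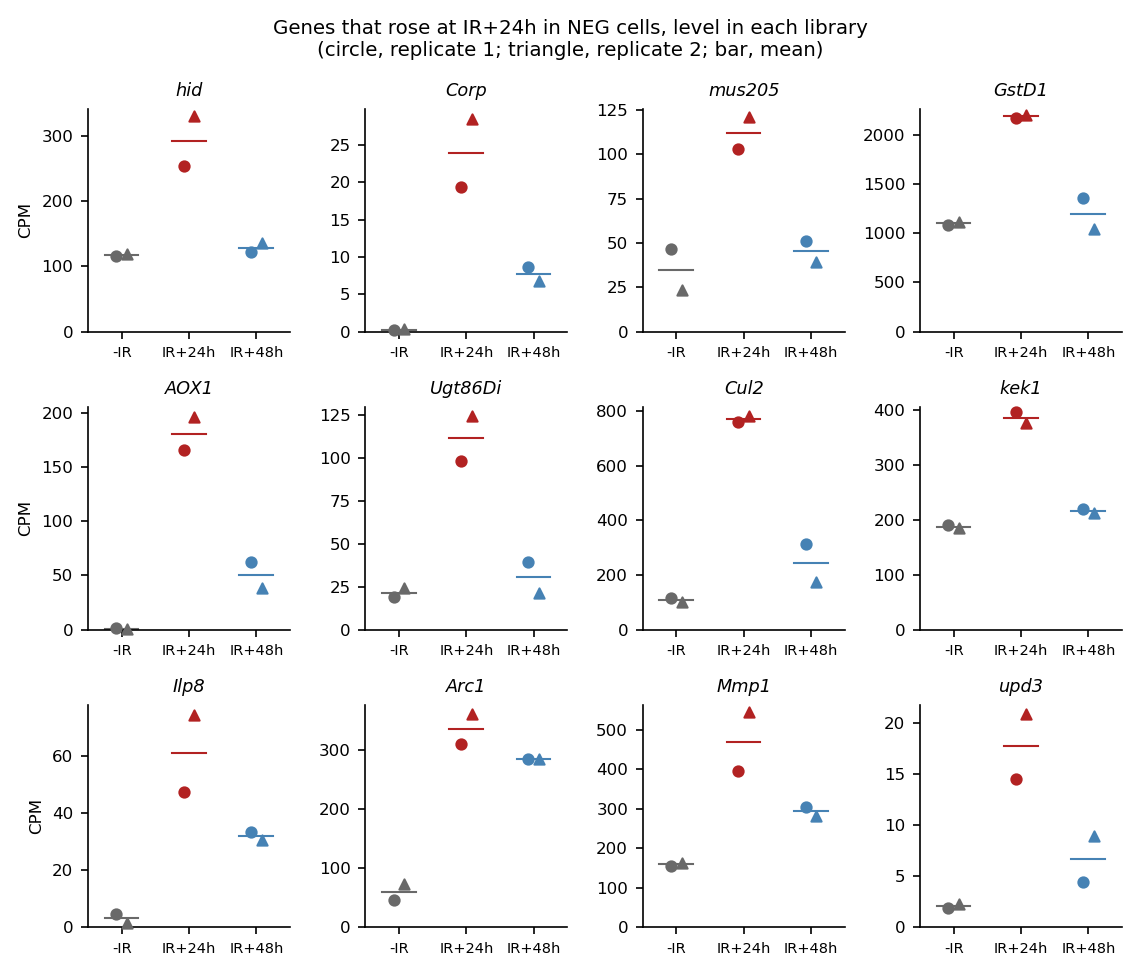
CPM of 12 genes that rose at IR+24h in NEG cells, in each -IR, IR+24h and IR+48h library, on linear axes from 0, with bars at the mean of 2 libraries. hid, GstD1 and kek1 come close to their -IR level at IR+48h, while Arc1, at 285 and 284 CPM, stays near its IR+24h level.

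The edgeR test called 12 genes both at IR+24h and at IR+48h over -IR, all higher: AOX1, Arc1, Ilp8, Corp, GstE6, Dscam3, Snap25, JhI-26, CG32437, CG15784, asRNA:CR46089 and asRNA:CR45136. At IR+48h over -IR the test called 12 genes higher, or 0.113%, and 0 lower, so these are all of its calls, and 0 of them were also called higher than at IR+24h. Arc1, which forms virus-like capsids that carry RNA between cells, had 46.7 and 72.9 CPM in -IR, 310 and 360 CPM at IR+24h and 285 and 284 CPM at IR+48h, so that 90.4% of its log2 rise was left (adjusted p = 7.55e-04 for IR+48h over -IR). Ilp8, the relaxin-like hormone that delays metamorphosis, had 4.60 and 1.67 CPM in -IR, 47.4 and 74.3 CPM at IR+24h and 33.3 and 30.6 CPM at IR+48h. Both IR+48h libraries of Ilp8 lay below both IR+24h libraries, with 79.5% of the rise left. Dscam3, an adhesion protein of the immunoglobulin family, had 0.968 and 0.654 CPM in -IR, 54.9 and 149 CPM at IR+24h and 61.9 and 99.4 CPM at IR+48h. For Dscam3 the 2 IR groups overlapped, and the sign of its small change at IR+48h over IR+24h turned when IR+24h replicate 2 was left out. Snap25, a SNARE of vesicle fusion best known from neurons, had 1.21 and 1.45 CPM in -IR, 20.8 and 27.4 CPM at IR+24h and 11.1 and 10.01 CPM at IR+48h.

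JhI-26, a gene induced by juvenile hormone, had 0 and 0.436 CPM in -IR, 28.9 and 34.8 CPM at IR+24h and 13.6 and 11.5 CPM at IR+48h. asRNA:CR46089 had no count in either -IR library, 177 and 305 counts at IR+24h and 137 and 120 counts at IR+48h. asRNA:CR45136 likewise had no count in -IR, 91 and 92 counts at IR+24h and 85 and 45 counts at IR+48h. No fold is given for these 3, because their -IR level is at or near the floor of 3 counts, which is 0.726 CPM in -IR replicate 1. Exons of other genes on the opposite strand overlap 70.5% of JhI-26, 29.5% of asRNA:CR46089 and 61.1% of asRNA:CR45136, and the strand of counting is not stated. The number of persisting genes depended on single libraries, with 71 without -IR replicate 2 and 7 without IR+48h replicate 1.

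The 52 nucleolar genes tested had a median log2 fold change of 0.39 at IR+24h over -IR and 0.40 at IR+48h over -IR, beside -0.01 and -0.02 for all genes tested. Their summed level was 4085 and 5511 CPM in -IR, 5857 and 5770 CPM at IR+24h and 5868 and 6053 CPM at IR+48h, with the 2 -IR libraries further apart than any IR libraries. The medians over -IR moved with the -IR library left out: they were 0.22 at IR+24h and 0.26 at IR+48h without -IR replicate 1, and 0.59 and 0.60 without -IR replicate 2. Few members passed by themselves: edgeR called 2 at IR+24h and 0 at IR+48h over -IR. At IR+48h over IR+24h, 26 were above and 26 below 0, and 1 was lower at an unadjusted p under 0.05. nclb, a chromatin-associated factor of RNA polymerase I transcription, had 44.0 and 54.4 CPM in -IR, 85.6 and 84.5 CPM at IR+24h and 89.3 and 84.3 CPM at IR+48h, and was 1 of 2 genes of the 201 whose fitted level was not below that at IR+24h. RpI135, a core subunit of RNA polymerase I, had 46.7 and 56.8 CPM in -IR, 80.6 and 79.2 CPM at IR+24h and 66.1 and 71.4 CPM at IR+48h, a rise that did not pass the test at IR+24h (adjusted p = 0.148 by edgeR). eIF6, which keeps the large ribosomal subunit from joining early, had 56.4 and 72.9 CPM in -IR, 175 and 176 CPM at IR+24h and 122 and 100 CPM at IR+48h. Myc, the growth regulator, had 379 and 495 CPM at IR+48h, against 507 and 516 CPM at IR+24h, with an adjusted p of 0.986 by edgeR.

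The cytoplasmic ribosomal proteins were lower by a small amount. Of 84 tested, 83 had a log2 fold change below 0 at IR+48h over IR+24h, with a median of -0.23, and the median over -IR was -0.16 at IR+24h and -0.37 at IR+48h. Only 6 were lower at an unadjusted p under 0.05, beside 4.51% of all genes. Another count, of those without overlap, was 31, or 36.9%, against 22.4% of all genes. The shift came mainly from IR+48h replicate 2: the median was -0.03 without it and -0.41 without IR+48h replicate 1. RpL38 was the single member called lower by DESeq2 (adjusted p = 0.0146), with 314 and 311 CPM in -IR, 240 and 420 CPM at IR+24h and 176 and 115 CPM at IR+48h. The proteasome subunits went the other way, with 30 of 31 above 0, but by a median of only +0.12, and 0 of them at an unadjusted p under 0.05. In 15 of the 31 both IR+48h libraries lay above both IR+24h libraries, or 48.4%, beside 19.3% of all genes.

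**Figure D3:**
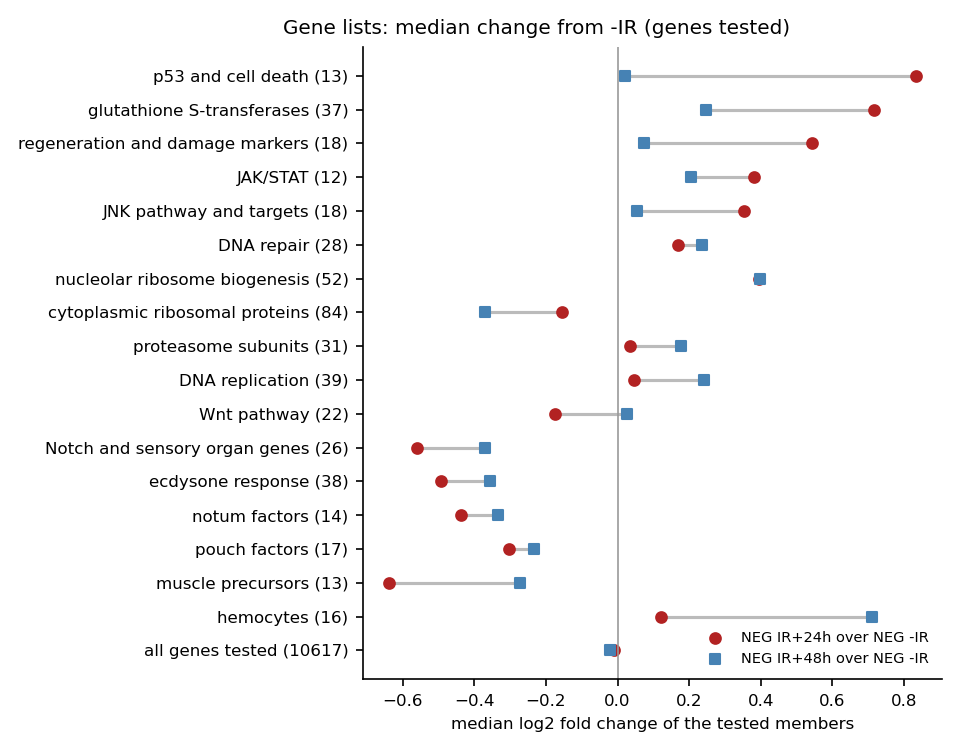
Median log2 fold change of the tested members of 17 gene lists and of all genes tested, at IR+24h over -IR (circles) and IR+48h over -IR (squares) in NEG cells. At IR+48h the p53 and cell death list lies at 0.02 (-0.08 to 0.12 with 1 NEG library left out) and nucleolar ribosome biogenesis at 0.40.

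Fewer genes had been lowered by IR than raised. The difference between the shares left, 67.0% of the change in the 28 that fell and 50.8% in the 201 that rose, was not tested. Of the 26 Notch and sensory organ genes, 4 fell at IR+24h by edgeR, beside 0.264% of all genes. All 4 are in the Enhancer of split complex, whose transcription Notch activates. E(spl)m7-HLH, a repressor of neural fate, had 487 and 362 CPM in -IR, 179 and 120 CPM at IR+24h and 191 and 218 CPM at IR+48h, and 70.2% of its fall was left. E(spl)m8-HLH, a repressor of the same family, had 92.7 and 52.0 CPM in -IR, 31.9 and 21.8 CPM at IR+24h and 27.7 and 28.2 CPM at IR+48h, with 95.8% left. For both, all IR+48h libraries stayed below both -IR libraries, and for E(spl)m8-HLH they lay inside the IR+24h range. The list had 0 genes at an unadjusted p under 0.05 at IR+48h over IR+24h and a median of 0.00. The receptor Egfr had 414 and 381 CPM in -IR, 232 and 211 CPM at IR+24h and 254 and 300 CPM at IR+48h. Him, a muscle precursor gene that fell at IR+24h, had 86.9 and 295 CPM in -IR, 42.5 and 24.8 CPM at IR+24h and 37.0 and 61.5 CPM at IR+48h, and the muscle precursor markers as a sum stood at 676 and 1849 CPM in -IR. The part of muscle precursor content in these values was not tested.

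Of 38 ecdysone genes tested, 3 fell and 3 rose at IR+24h over -IR by edgeR, beside 0.264% and 1.89% of all genes. The 3 that fell were Blimp-1, ImpE2 and ImpE3, and the 3 that rose were ftz-f1, chinmo and Ldh. Blimp-1, an ecdysone-induced repressor that times pupation, had 8.95 and 23.5 CPM in -IR, 0.641 and 0.622 CPM at IR+24h and 10.6 and 5.95 CPM at IR+48h. It was the only gene that DESeq2 called returned after a fall (adjusted p = 0.00113 for IR+48h over IR+24h), with 0.261 by edgeR and 0.719 by limma voom. ImpE3, an ecdysone-inducible gene, had 24.7 and 44.4 CPM in -IR, 5.29 and 3.25 CPM at IR+24h and 16.4 and 5.48 CPM at IR+48h. ImpE1, inducible likewise, did not pass the test at IR+24h and had 250 and 188 CPM at IR+48h, against 96.9 and 116 CPM at IR+24h. Of the 38, 4 were higher and 3 lower at IR+48h over IR+24h at an unadjusted p under 0.05, and edgeR called none. The shares among all genes were 1.56% higher and 4.51% lower. Ecdysone genes are known to follow the hormone titre of the larva, and larval age and time after IR cannot be told apart here. Nep2, a neprilysin peptidase chosen after its values were seen, had 42.6 and 45.8 CPM in -IR, 15.1 and 13.1 CPM at IR+24h and 28.0 and 20.5 CPM at IR+48h, with 52.6% of its fall left.

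Few genes were classed as first changed, that is called at IR+48h over IR+24h but not at IR+24h over -IR. A gene that missed the test at IR+24h may still have changed by then. DESeq2 gave 8 genes in this class, of which EMC1 and peb were higher and 6 were lower than at IR+24h. peb, the zinc finger factor Hindsight, had 47.9 and 46.2 CPM in -IR, 32.4 and 34.7 CPM at IR+24h and 57.3 and 50.1 CPM at IR+48h (adjusted p = 0.0241 by DESeq2 and 0.327 by edgeR). EMC1, a subunit of a complex that inserts membrane proteins, had 120 and 115 CPM in -IR, 101 and 97.5 CPM at IR+24h and 138 and 157 CPM at IR+48h. Both genes were lowest at IR+24h, where they did not pass the test against -IR, and highest at IR+48h. Hsp70Bb, a stress-induced chaperone, had 62.9 and 50.1 CPM in -IR, 42.4 and 110 CPM at IR+24h and 22.1 and 10.4 CPM at IR+48h. Hsp70Bb has near-identical copies among which reads may be shared, and the 25 heat shock genes had a median of -0.03. crc, the Drosophila ATF4 that responds to amino acid and ER stress, had 225 and 168 CPM at IR+48h, against 334 and 375 CPM at IR+24h, and 73.5% of its exons overlap CG46314 on the same strand. The other calls were lft, a partner of Fat in planar polarity, with 66.6 and 43.6 CPM at IR+48h, against 97.5 and 125 CPM at IR+24h, and RpL38, CG3168 and lncRNA:CR34335. Of the 8, DESeq2 also called 3 against -IR, RpL38, Hsp70Bb and lncRNA:CR34335, all lower. These genes were chosen after their values were seen, apart from RpL38 and Hsp70Bb.

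**Figure D4:**
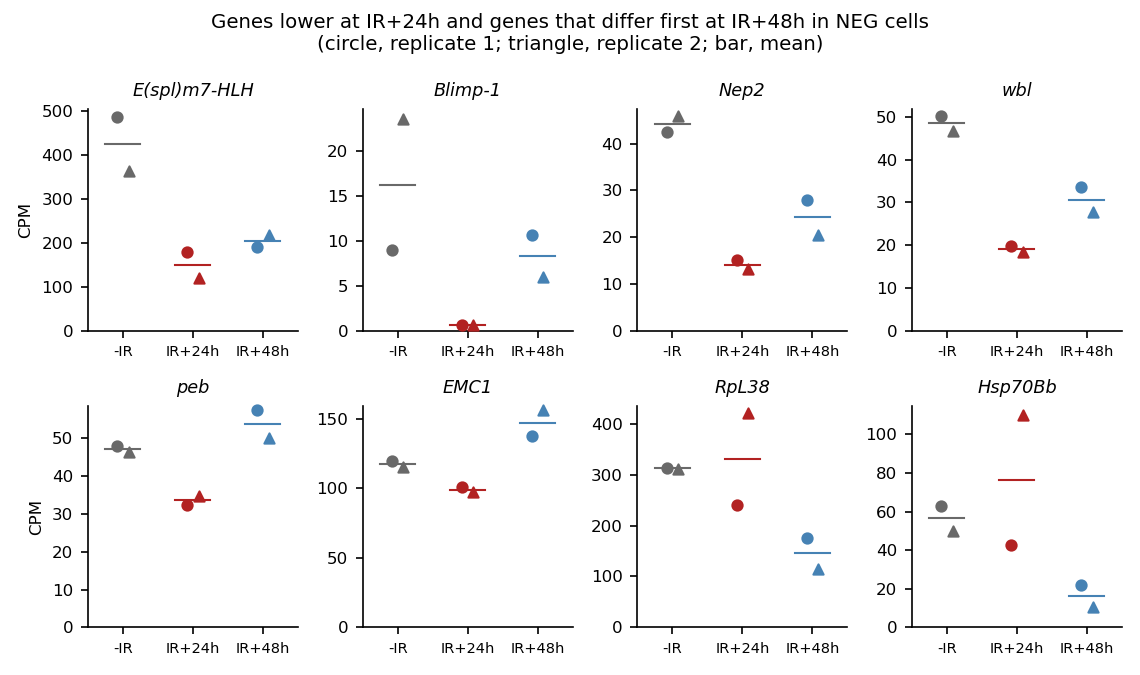
CPM of 8 genes in each -IR, IR+24h and IR+48h library of NEG cells, on linear axes from 0, with bars at the mean of 2 libraries. E(spl)m7-HLH stays low at 191 and 218 CPM, Blimp-1, Nep2 and wbl lie higher at IR+48h than at IR+24h, and RpL38 and Hsp70Bb are lowest at IR+48h.

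Patterning genes differed little. Of 17 pouch and 14 notum factors, 0 differed at an unadjusted p under 0.05, with medians of 0.01 and 0.07. Of 22 Wnt pathway genes, 17 were above 0, with a median of +0.16 that was 0.29 without IR+48h replicate 1 and 0.07 without IR+48h replicate 2, and arr, the Wnt co-receptor, was the 1 gene at an unadjusted p under 0.05, with 251 and 249 CPM at IR+48h, against 192 and 165 CPM at IR+24h. The protocadherins of the Fat pathway were both higher in both libraries. ft had 952 and 933 CPM at IR+48h, against 682 and 678 CPM at IR+24h, and ds had 879 and 796 CPM at IR+48h, against 618 and 627 CPM at IR+24h, with adjusted p-values of 0.763 and 0.768 by edgeR. The driver 30A-GAL4 sits in an intron of ds, which all larvae share. Their target fj, a kinase of the Golgi that rose at IR+24h, had 179 and 196 CPM at IR+48h, against 213 and 325 CPM at IR+24h. ptc, the Hedgehog receptor, had 251 and 342 CPM at IR+48h, against 188 and 217 CPM at IR+24h.

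Of 16 hemocyte genes tested, 13 had a log2 fold change above 0 at IR+48h over IR+24h, beside 48.7% of all genes. In 9 of them the groups did not overlap, or 56.25% of the list, beside 19.3% of all genes. In 2 members both IR+48h libraries lay below both IR+24h libraries, or 12.5%, beside 22.4% of all genes. The median was +0.65, and 0 were higher and 1 lower at an unadjusted p under 0.05. The median was 1.20 without IR+24h replicate 1 and 0.28 without IR+24h replicate 2. The 6 markers Hml, NimC1, eater, Pxn, srp and He summed to 62.9 and 143 CPM in -IR, 247 and 76.9 CPM at IR+24h and 289 and 293 CPM at IR+48h. All 16 genes summed to 1166 and 2523 CPM in -IR, 1581 and 1208 CPM at IR+24h and 2063 and 2494 CPM at IR+48h. By that sum -IR replicate 2 lay above both IR+48h libraries, so a level above -IR was not shown for the list. PPO1 and PPO2, prophenoloxidases of crystal cells, showed the clearest separation: PPO1 had 17.9 and 17.1 CPM in -IR, 18.5 and 28.4 CPM at IR+24h and 108 and 112 CPM at IR+48h, and PPO2 had 8.71 and 21.5 CPM in -IR, 19.7 and 34.9 CPM at IR+24h and 136 and 183 CPM at IR+48h. Neither passed edgeR over all 12 libraries (adjusted p = 0.938 and 0.917), while both were among the 5 genes called higher when the 4 NEG IR libraries were fitted alone.

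No gene passed the edgeR test for a difference between NEG and POS cells in the change of the second day. The contrast of the NEG change minus the POS change called 0 genes by edgeR and 0 by limma voom, with 103 genes or 0.970% at an unadjusted p under 0.05, and 3 or 0.0283% by DESeq2. Each change by itself also gave 0 edgeR calls, so 0 calls here do not show that the changes were alike. Cytoplasmic ribosomal proteins had a median of -0.23 in NEG and -0.0003 in POS cells, and DNA replication genes of +0.20 and +0.17. The differences between these medians were not tested. Of the 201 genes that rose at IR+24h in NEG cells, 198 were also lower at IR+48h than at IR+24h in POS cells, with medians of -0.87 in NEG cells and -0.76 in POS cells. These values share no library, but NEG and POS libraries are not shown to be independent, as given above. In POS cells too, edgeR called 0 genes for IR+48h over IR+24h, with 523 or 4.93% at an unadjusted p under 0.05. Among genes named above, AOX1 had a log2 fold change of -1.84 in NEG and -1.13 in POS cells, hid -1.18 and -0.98, Mmp1 -0.68 and -0.96, and Blimp-1 3.70 and 3.37. Of the 28 genes that fell in NEG cells, 27 were higher at IR+48h in POS cells.

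**Figure D5:**
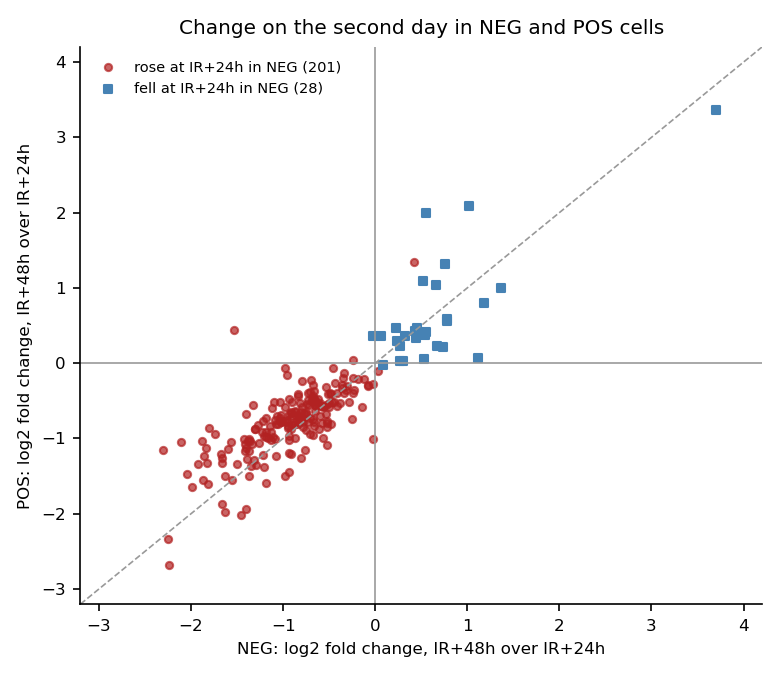
Log2 fold change of IR+48h over IR+24h in NEG cells (horizontal axis) and POS cells (vertical axis) for the 201 genes that rose and the 28 that fell at IR+24h in NEG cells, with the line of equal change dashed. Of the 201, 198 lie below 0 in POS cells, and of the 28, 27 lie above 0.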

How the data were processed

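RNA of sorted NEG and POS cells was sequenced after poly-A selection, with 2 libraries in each of 6 groups. The authors aligned and counted reads with STAR 2.6.0a and deposited raw counts per gene for each library, with no normalization. The strand of counting is not stated. The table holds 17753 genes, of which 15643 had a count, and 1 column that matches no sample and was not used.

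Counts were fitted with edgeR 4.0.16 in R 4.3.3 (TMM, filterByExpr, quasi-likelihood F tests, two-sided) with 1 mean for each of the 6 groups over the 12 libraries. Filtering left 10617 genes, and p-values were adjusted over them (Benjamini-Hochberg, threshold 0.05). The contrasts were NEG IR+48h over NEG IR+24h, each over NEG -IR, the same in POS cells, and the NEG change minus the POS change. Returned genes were called at IR+24h over -IR and called the opposite way at IR+48h over IR+24h. Persisting genes were called the same way at IR+24h and IR+48h over -IR and had not returned. First changed genes were called at IR+48h over IR+24h and not at IR+24h over -IR, whether or not they were called at IR+48h over -IR. Fold changes are those of edgeR throughout, and CPM were scaled by TMM. The floor of 3 counts lies between 0.146 and 0.726 CPM by library. Counting error is only part of the spread, and the common biological coefficient of variation was 0.303.

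Alternatives were limma voom 3.58.1, DESeq2 1.42.0, other scalings and filters, fewer libraries, a replicate block and each NEG library left out. Genes named were the strongest of each class and the up to 4 members of each of 42 lists with the lowest p, and the genes the study describes. Not every gene that fits this rule is given. Named outside it, once values were known, were rpr, rad50, nbs, Ku80, Irbp, RnrL, Ilp8, Dscam3, Snap25, E(spl)m8-HLH, wbl, PPO1 and those marked in the text. The members and lists were chosen with earlier results of these data known. Gene symbols were looked up in the BDGP6.54 annotation, which gave an identifier for 10578 of the genes tested and the exon overlaps. Promoter sequences were not used here. The fits were tested on simulated data. Python 3.11.15 and matplotlib 3.10.9 were used for summaries and figures.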

Additional observations from a re-analysis of the deposited data

Results flagged for a closer look

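DESeq2 called the NEG change minus the POS change at an adjusted p under 0.05 for 3 genes, none of which passed edgeR (adjusted p = 1.0 for each). Tig, an extracellular matrix ligand of integrins, had 34.9 and 27.1 CPM in NEG IR+48h, against 27.5 and 13.0 CPM in NEG IR+24h, and 44.1 and 17.9 CPM in POS IR+48h, against 138 and 176 CPM in POS IR+24h, a log2 difference of changes of 2.95. For PPO1 the fitted difference was -9.15, a value that depends on the small count the fit adds, since PPO1 was at 0 in both POS IR+24h libraries and at 0 and 47.0 CPM in POS IR+48h. For Lcp4, a larval cuticle protein, the fitted difference was -13.60 for the same reason: it was at 0 in both NEG IR+48h libraries, against 8.57 and 0.622 CPM in NEG IR+24h, and at 0.146 and 0.255 CPM in POS IR+48h, against 0 in both POS IR+24h libraries.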

How the results depend on the processing

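For NEG IR+48h over NEG IR+24h, library sizes without TMM, DESeq2's size factors, 1 CPM in every library, the NEG libraries alone and a minimum log2 fold change of 1 all gave 0 calls in either direction, as edgeR did. Without a filter there were 30 higher, 125 lower, 115 returned, 161 persisting, 37 first changed and 17 genes that differed from POS cells. DESeq2 gave 3 higher, 70 lower, 65 returned, 83 persisting, 8 first changed and 3 that differed from POS cells. limma voom gave 9 lower, 9 returned and 1 persisting, and the filter of 1 CPM gave 3 persisting. The 4 NEG IR libraries alone gave 5 higher and 52 lower. With the replicate number as a block, 3 were lower (AOX1, Dgp-1 and Cul2), 3 returned and 10 persisted, but the numbers were not taken to pair the libraries: deviations of same-numbered NEG libraries correlated at 0.0744 (IR+48h and IR+24h), -0.135 (IR+24h and -IR) and -0.00665 (IR+48h and -IR), and those of NEG and POS libraries at 0.162 (IR+48h) and 0.11 (IR+24h). A block with the IR+24h numbers crossed, added after seeing the data, gave 19 lower, 18 returned, 19 persisting and 1 first changed. The cause of these differences was not tested. With 1 NEG library left out, genes called higher stayed at 0, lower ranged from 0 to 4, returned from 0 to 4, persisting from 7 to 71, first changed stayed at 0 and differences from POS cells at 0; a lone library was then taken to vary like the other groups. Of 109 genes followed, 106 kept the sign of their log2 fold change under each alternative that gave them a value (96 had a value under all 16), and the exceptions, with 1 library left out, ranged from -0.89 to 0.56 for Dscam3 and from -0.19 to 0.36 for E(spl)m8-HLH (IR+24h replicate 2 left out turns both), and from -0.013 to 0.10 for nclb (IR+48h replicate 1 left out turns it). The median of all genes moved between -0.05 and 0.03. Each group held 2 libraries, and the smallest, -IR replicate 1 with 4211088 counts, enters only levels relative to -IR and the shared filter and spread. Promoter motifs were not run, because no promoter sequence was used.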
